A study of Mus musculus with 6 samples.

Results

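The glutathione transferases described here are 10 mouse genes, Gsta1, Gsta2, Gsta3, Gsta4, Gstm1, Gstm2, Gstm3, Gstp1, Gstt1 and Mgst1, taken by name and not by their values, out of 18338 genes named on the array. The accessions of 14 probes matched them, 1 probe each for 6 genes and 2 each for Gsta3, Gstm1, Gstp1 and Mgst1. All 14 probes were well above background on all 6 arrays, no spot was saturated, and all 10 genes were among the 15378 genes tested.

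RNA from 6 livers of BL6 mice was hybridised to single-colour arrays, 1 array per sample. All mice carried Fah_del_tm1Mgo and so lacked Fah, fumarylacetoacetate hydrolase, which makes the last step of tyrosine breakdown. Mice called FCR carried in addition Rag2_del_tm1Fwa and the common gamma chain deletion tm1Wjl, and have no mature T, B or NK cells. NTBC blocks an earlier step of the pathway and protects such livers, and 100% NTBC was 7.5 µg/ml in the drinking water. Healthy Fah liver (n = 1) and normal FCR liver (n = 1) came from mice kept on 100% NTBC. Fah tumour (n = 2) and inflamed FCR liver (n = 2) came from mice with repeated NTBC withdrawal, under a regimen named off for replicate 1 and a regimen named 2xoff/on for replicate 2. The labels do not settle in which NTBC phase each of these livers was taken, and they give no age or number of animals per sample. A Fah tumour differs from healthy Fah liver in the tissue as well as in the regimen. Whether both replicates of a group are different animals is not stated, so p-values measure only the spread between these samples.

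Glutathione transferases join the tripeptide glutathione to reactive, electron-poor molecules so that these can be exported and excreted. The cytosolic enzymes fall into classes named alpha (Gsta), mu (Gstm), pi (Gstp) and theta (Gstt) and work as dimers, while Mgst1 sits in membranes of the endoplasmic reticulum and the mitochondria. In liver many of them are raised through the transcription factor NRF2, which is held back by Keap1 and binds antioxidant response elements, and through the xenobiotic receptors CAR and PXR. Fumarylacetoacetate and maleylacetoacetate, which build up when Fah is absent and NTBC is withdrawn, are themselves electrophiles that react with glutathione.

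Levels are log2 ratios of a probe's processed signal to the 75th percentile of its array, so that a difference of 1 is a doubling; levels of different probes cannot be set against each other. The 75th percentile was 363 on the Fah healthy array, 811 and 890 on the Fah tumour arrays, 374 on the FCR normal array, and 363 and 722 on the FCR inflamed arrays, and 60.5% to 74.5% of spots were well above background. The 2xoff/on samples shared slide 2 and the other 4 samples slide 1, so regimen and slide cannot be told apart. The Il2rg probe, for the common gamma chain, lay at -3.40, -1.94 and -1.98 on the Fah arrays and was not well above background on the FCR arrays. The Rag2 probe did not clear background anywhere, and the Fah probe lay between -2.85 and -0.97 on all 6; where these probes lie relative to the deleted parts was not examined. The 7 measured hepatocyte markers were well above background on every array.

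Gsta1 and Gsta2 were the members that differed most between the tumours and inflamed FCR liver. Both alpha class enzymes are known as inducible liver transferases in mice. Gsta1 lay at 6.24 in Fah healthy liver, 6.34 and 5.81 in the Fah tumours, 6.67 in FCR normal liver, and 9.21 and 8.32 in inflamed FCR liver. Gsta2 lay at 5.17, then 5.42 and 4.97 in the tumours, 5.78 in FCR normal liver, and 8.63 and 7.81 in inflamed FCR liver. For both genes the inflamed FCR arrays stood above all 4 others, among which the range was under 1. Fah tumour minus inflamed FCR liver was -2.69 ± 0.49 for Gsta1 (SE, n = 2 against 2, 6.44-fold lower, limma adjusted p = 0.0833) and -3.03 ± 0.48 for Gsta2 (8.15-fold lower, limma adjusted p = 0.0585). Neither passed the threshold of 0.05 adjusted over all genes. Both passed with slide as a block (limma adjusted p = 0.00022 and 9.7e-06) and with normexp background correction (0.00252 and 0.000453). Over all genes 984 passed with the slide block and 200 with normexp, against 32 without either change. Neither gene passed with quantile normalization (limma adjusted p = 0.203 and 0.116) or in the authors' deposited table (0.197 and 0.135). Without 1 array the differences ranged from -3.13 to -2.24 for Gsta1 and from -3.44 to -2.62 for Gsta2. Within slide 1 the differences were -2.87 and -3.21, and within slide 2 -2.51 and -2.84.

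Inflamed minus normal FCR liver was 2.09 ± 0.60 for Gsta1 (limma adjusted p = 0.137) and 2.44 ± 0.59 for Gsta2 (limma adjusted p = 0.0842). Without 1 array they ranged from 1.65 to 2.54 and from 2.03 to 2.85. Fah tumour minus Fah healthy liver was -0.17 ± 0.60 for Gsta1 (95% interval -1.53 to 1.19) and 0.03 ± 0.59 for Gsta2 (-1.31 to 1.36), with signs that depended on the scaling. The difference between both responses was -2.27 ± 0.85 and -2.41 ± 0.83 at unadjusted p of 0.0257 and 0.018 in limma; after adjustment over all genes p was 1.

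Gsta1 and Gsta2 lie on chromosome 9 with 4 other protein-coding genes between them in the RefSeq order. Their promoter windows, from 250 bases before to 50 after the start site, are shown because both genes had the same pattern over the arrays. The windows come from RefSeq on GRCm38.p6, a later build than the mm9 of the array design: chr9:78230419-78230718 on the plus strand for Gsta1 and chr9:78347096-78347395 on the minus strand for Gsta2. Capitals mark runs of at least 12 bases that are identical in both.
Gsta1: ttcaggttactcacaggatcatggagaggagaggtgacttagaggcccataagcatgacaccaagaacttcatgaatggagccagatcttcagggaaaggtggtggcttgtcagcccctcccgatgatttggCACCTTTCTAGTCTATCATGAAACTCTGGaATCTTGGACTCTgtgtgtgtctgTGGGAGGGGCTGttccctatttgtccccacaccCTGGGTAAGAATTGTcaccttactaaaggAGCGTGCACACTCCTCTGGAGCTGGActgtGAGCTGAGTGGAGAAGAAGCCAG
Gsta2: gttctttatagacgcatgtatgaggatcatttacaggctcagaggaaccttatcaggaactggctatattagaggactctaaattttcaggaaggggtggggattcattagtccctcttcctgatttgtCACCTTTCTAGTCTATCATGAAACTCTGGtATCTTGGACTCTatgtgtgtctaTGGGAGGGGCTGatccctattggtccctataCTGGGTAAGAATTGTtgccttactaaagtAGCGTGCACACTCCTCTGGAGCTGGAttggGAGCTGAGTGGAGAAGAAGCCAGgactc
Of 289 aligned bases 232 were identical (80.3%), with 6 such runs, the longest of 29 bases. Among the other 52 pairs of windows of different members, 115 to 190 bases were identical and the longest run was 16 bases. The probe sequences were not used here, so how far each of these 2 probes also binds the transcript of the other gene, or of other close relatives, was not tested.

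**Figure D1:**
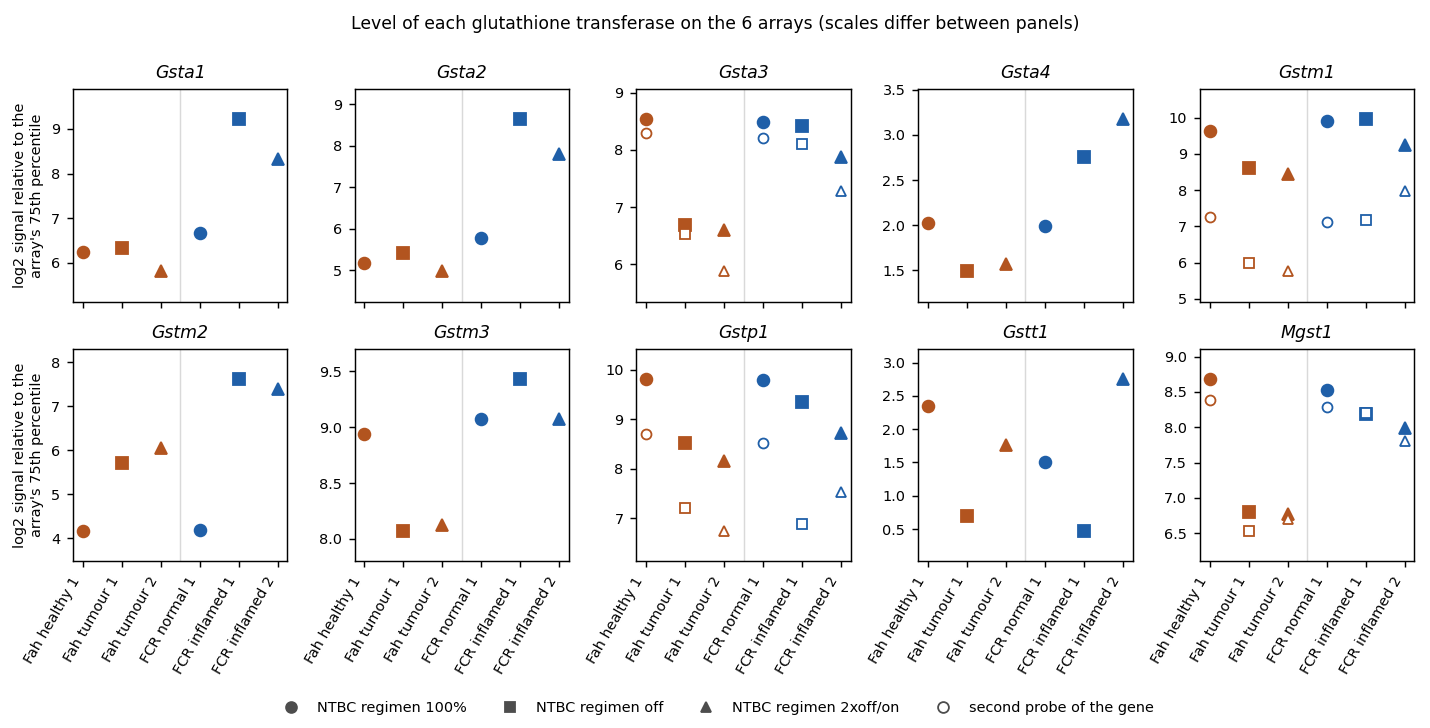
Level of each gene on the 6 arrays, in log2 units above its 75th percentile; brown is Fah, blue FCR, circles continuous NTBC, squares off and triangles 2xoff/on, and open symbols the second probe of a gene. Gsta1 and Gsta2 are high only on the inflamed FCR arrays (8.32 and 9.21 for Gsta1), Gstm2 is low on both continuous NTBC arrays (4.16 and 4.18), and Gsta3 and Mgst1 are low on both tumour arrays.

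Gsta3 and Gsta4 completed the alpha class and followed other patterns. Gsta3, the constitutive alpha enzyme of mouse liver that detoxifies aflatoxin epoxide, lay at 8.53 in Fah healthy liver, 6.69 and 6.61 in the tumours, 8.48 in FCR normal liver, and 8.42 and 7.87 in inflamed FCR liver. Its second probe gave 8.30, 6.54, 5.88, 8.20, 8.11 and 7.28 in the same order. On both probes the 2 tumour arrays were below all 4 others. Tumour minus Fah healthy liver was -1.88 ± 0.54 (limma adjusted p = 0.0864) and tumour minus inflamed FCR liver -1.49 ± 0.44 (limma adjusted p = 0.286); the second probe gave -2.08 and -1.48. Leaving out an FCR inflamed array cannot change tumour minus Fah healthy liver, which uses none. Without FCR inflamed replicate 2, tumour minus inflamed FCR liver was -1.77. Inflamed minus normal FCR liver was -0.34 ± 0.54 (95% interval -1.56 to 0.88), and its sign turned under quantile normalization.

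Gsta4, which conjugates 4-hydroxynonenal, a product of lipid peroxidation, was spotted 10 times per array. It lay at 2.03 in Fah healthy liver, 1.49 and 1.57 in the tumours, 1.99 in FCR normal liver, and 2.75 and 3.17 in inflamed FCR liver. The tumours were the lowest and the inflamed FCR livers the highest arrays. Tumour minus inflamed FCR liver was -1.43 ± 0.47 (limma adjusted p = 0.356), tumour minus healthy -0.50 ± 0.58 (0.751) and inflamed minus normal 0.97 ± 0.58 (0.534), so that no comparison passed.

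Among the mu class genes Gstm2 was the member that passed a test. Gstm2 lay at 4.16 in Fah healthy liver, 5.72 and 6.05 in the tumours, 4.18 in FCR normal liver, and 7.62 and 7.39 in inflamed FCR liver. The arrays fell into 3 levels without overlap, continuous NTBC lowest, tumours between and inflamed FCR liver highest. It rose in inflamed over normal FCR liver by 3.32 ± 0.54 (n = 2 against 1, 9.99-fold, limma adjusted p = 0.0216). That call was lost with the array median as the scale (3.07, limma adjusted p = 0.0536), without a trend in eBayes (0.0532) and when every probe was tested on its own (0.0702). Averaged over both genotypes it rose by 2.52 ± 0.38 (5.75-fold, limma adjusted p = 0.0044), and this passed under each of the 13 alternatives run, at 2.21 to 2.88. In Fah tumour over healthy liver the difference was 1.73 ± 0.54 (limma adjusted p = 0.111), and it passed with quantile normalization at 2.38 (0.0371). The difference between tumour and inflamed FCR liver was -1.62 ± 0.44 (limma adjusted p = 0.248), and -1.73 without FCR inflamed replicate 2.

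Gstm1 and Gstm3, the neighbours of Gstm2 on chromosome 3 with no other protein-coding gene between the 3 of them in the RefSeq order, did not pass in any comparison. Gstm1, a main mu class enzyme of mouse liver, lay at 9.63 in Fah healthy liver, 8.61 and 8.45 in the tumours, 9.90 in FCR normal liver, and 9.95 and 9.24 in inflamed FCR liver. Its second probe gave 7.27, 6.0, 5.76, 7.13, 7.17 and 7.99 in the same order. The tumours were lowest on both probes, but the 2xoff/on FCR array was below the other non-tumour arrays on the first probe and above them on the second. Inflamed minus normal FCR liver was accordingly -0.31 ± 0.55 with the first probe and 0.45 ± 0.57 with the second. Gstm3 lay at 8.94, then 8.07 and 8.12 in the tumours, 9.07 in FCR normal liver, and 9.43 and 9.07 in inflamed FCR liver. Tumour minus inflamed FCR liver was -1.06 ± 0.45 for Gstm1 (limma adjusted p = 0.52) and -1.15 ± 0.42 for Gstm3 (0.43). Tumour minus healthy liver was -1.10 ± 0.55 for Gstm1 and -0.85 ± 0.52 for Gstm3, and with quantile normalization the signs turned, to 0.06 and 0.23.

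The promoter window of Gstm2, the member that passed, is on the minus strand at chr3:107986371-107986670 of GRCm38.p6 and held none of the 3 motifs searched, which is why it has no capitals. The motifs, read on both strands, were the antioxidant response element core TGACNNNGC, the small Maf form TGANTCAGC and the AP-1 form TGANTCA. The second is bound by NRF2 with small Maf proteins and holds the third inside it. The 3 motifs were found in 12.4%, 1.19% and 7.81% of the 32851 RefSeq windows.
Gstm2: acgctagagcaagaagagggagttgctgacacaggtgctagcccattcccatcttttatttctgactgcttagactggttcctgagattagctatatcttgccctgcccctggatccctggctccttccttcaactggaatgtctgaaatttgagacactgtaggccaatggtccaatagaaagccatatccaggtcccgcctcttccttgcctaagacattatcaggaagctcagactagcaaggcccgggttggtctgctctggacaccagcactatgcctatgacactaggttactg
No match says only that these letters are not in this window. Of the 9 members with a window in the table, Gsta3 and Mgst1 held the antioxidant response element core, with first bases at -121 and -56 from the start site. Gstp1 held the small Maf form and the AP-1 form inside it, but not the core.

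Gstp1, the pi class enzyme, is abundant in mouse liver, and in rat liver it marks early neoplastic foci. It lay at 9.81 in Fah healthy liver, 8.53 and 8.15 in the tumours, 9.79 in FCR normal liver, and 9.34 and 8.72 in inflamed FCR liver. The second probe gave 8.70, 7.20, 6.74, 8.53, 6.88 and 7.52 in the same order. Both continuous NTBC arrays were above the 4 others on both probes; the tumours were below the inflamed FCR livers on the first probe and overlapped with them on the second. Tumour minus healthy liver was -1.47 ± 0.55 (limma adjusted p = 0.185). Tumour minus inflamed FCR liver was -0.69 ± 0.45 (0.733) and turned to 0.15 with quantile normalization. The Gstp1 window, on the minus strand at chr19:4037863-4038162 of GRCm38.p6, is shown because it held the small Maf form TGANTCAGC. That match is in capitals, with its first base at -74 from the start site.
Gstp1: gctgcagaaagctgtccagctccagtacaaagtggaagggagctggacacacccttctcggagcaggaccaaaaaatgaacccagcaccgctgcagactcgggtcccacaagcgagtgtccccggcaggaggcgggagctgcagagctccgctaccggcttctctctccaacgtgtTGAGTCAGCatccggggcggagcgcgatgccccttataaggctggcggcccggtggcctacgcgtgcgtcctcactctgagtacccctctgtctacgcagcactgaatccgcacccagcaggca
A match is a description of the letters and not of binding.

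Gstt1, the theta class enzyme, which acts on small halogenated molecules, lay at 2.35 in Fah healthy liver, 0.70 and 1.76 in the tumours, 1.5 in FCR normal liver, and 0.47 and 2.75 in inflamed FCR liver. In both genotypes the off array was the lowest, and the tumours and inflamed livers overlapped. Regimen 2xoff/on minus off, with genotype in the model, was 1.67 ± 0.47 (limma adjusted p = 0.147). It passed without Fah tumour replicate 2, at 2.43 (0.00271), and with normexp background correction, at 1.59 (0.023). This comparison is also one of slide 2 with slide 1.

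Mgst1, the microsomal transferase, which also reduces lipid hydroperoxides, lay at 8.68 in Fah healthy liver, 6.80 and 6.77 in the tumours, 8.52 in FCR normal liver, and 8.19 and 7.99 in inflamed FCR liver. Its second probe gave 8.39, 6.53, 6.70, 8.29, 8.20 and 7.81 in the same order. The 2 tumours were the lowest arrays on both probes. Tumour minus healthy liver was -1.90 ± 0.52 (3.73-fold lower, limma adjusted p = 0.0752). Tumour minus inflamed FCR liver was -1.31 ± 0.42 (limma adjusted p = 0.341), and inflamed minus normal FCR liver was -0.42 ± 0.52 (95% interval -1.60 to 0.75).

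Over the 10 genes, no member passed for tumour against inflamed FCR liver, a comparison in which 0.208% of all genes passed. All 10 differences were below 0, as were 57.6% of all genes tested, with a median of -1.37 against -0.13 for all genes. With quantile normalization the median was -0.70 and 9 of 10 were below 0, Gstp1 being the exception, and in the authors' deposited table all 10 were below 0 with a median of -0.68. For 9 members, all but Gstt1, both tumour arrays lay below both inflamed FCR arrays, as they did for 23.9% of all genes. Unadjusted p was under 0.05 for 8 members and for 9.19% of all genes. On slide 1, with the off arrays, the median was -1.37 with 9 of 10 below 0, and on slide 2 it was -1.24 with 10 of 10 below 0.

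For Fah tumour minus healthy liver none of the 10 passed, against 5.06% of all genes; 8 lay below 0, as did 53.2% of all genes, and the median was -0.98 against -0.08. Unadjusted p was under 0.05 for 4 members and for 18.6% of all genes. Both tumour arrays lay below the healthy array for 7 members, against 42.8% of all genes, and above it for Gstm2, against 35.8%. With quantile normalization the median was -0.11, 5 lay below 0 and Gstm2 passed. The median was below 0 on each scale run, from -1.34 with the array median to -0.11. Its size, and the direction of single members, depended on the scaling. For inflamed minus normal FCR liver 1 of 10 passed, against 1.76% of all genes, and 1.55% in the direction of Gstm2, with 6 above 0 (51.6% of all genes) and a median of 0.14 against 0.04. Unadjusted p was under 0.05 for 3 members and for 14% of all genes. Both inflamed arrays lay above the normal array for Gsta1, Gsta2, Gsta4 and Gstm2, against 35.5% of all genes, and below it for Gsta3, Gstp1 and Mgst1, against 31.8%. With the array median as the scale the median was -0.11. For the mean of both responses 1 of 10 passed, against 12% of all genes and 8.66% in its direction. All 4 arrays with withdrawal lay above both continuous NTBC arrays for Gstm2, against 20.1% of all genes, and below them for Gsta3, Gstp1 and Mgst1, against 20.9%. The members had a median of -0.42 against -0.02; it was 0.25 with quantile normalization. Gsta2, at 1.23 ± 0.42 (limma adjusted p = 0.0954), passed there with normexp, quantile normalization and the authors' deposited table (0.0398, 0.0373 and 0.0481) and without FCR inflamed replicate 2, at 1.44 (0.00767). Without that array Gsta1 also passed, at 1.18 (0.0243). Without FCR inflamed replicate 1, Gsta3, Gstp1 and Mgst1 passed at -1.25, -1.27 and -1.21 (0.0257, 0.0313 and 0.0293), and Mgst1 also without FCR inflamed replicate 2, at -1.11 (0.0286). The difference between the 2 responses was below 0 for all 10 members, as for 53.2% of all genes, and with quantile normalization it was 0.08 for Gstp1. No gene of any kind passed that test in limma, and 2.16% had an unadjusted p under 0.05, among them Gsta1 and Gsta2. The 2 responses and the comparison of tumour with inflamed liver share arrays, so their values are not independent of each other.

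**Figure D2:**
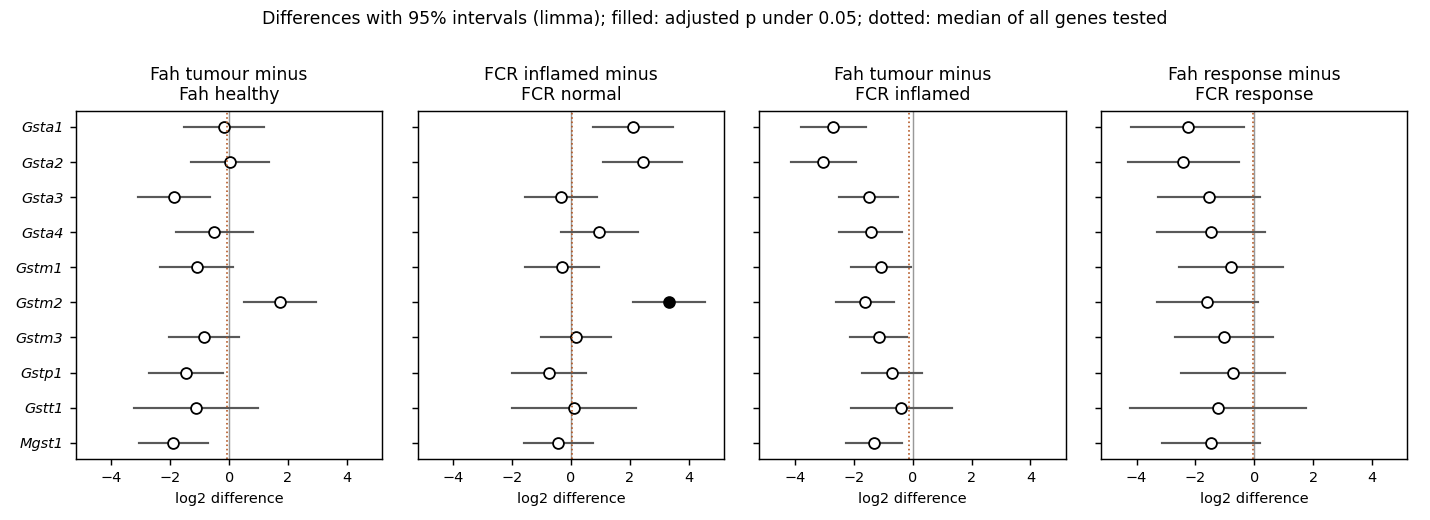
Log2 differences of the 10 genes with 95% intervals from limma in 4 comparisons, filled where the adjusted p over all genes was under 0.05, with a dotted line at the median of all genes tested. Gstm2 in inflamed over normal FCR liver (3.32) is the only filled point; Gsta1 and Gsta2 have the lowest values for tumour minus inflamed FCR liver (-2.69 and -3.03). With quantile normalization Gsta1, Gstm1 and Gstm3 change sign in the first panel, Gsta3 and Gstm1 in the second, and Gstp1 in both panels at the right; with the array median Gsta2 does in the first and Gstm3 and Gstt1 in the second.

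The brightest members depended most on how arrays were put on a common scale. The processed signal of Gstm1 ran from 288649 to 436274 over the 6 arrays and that of Gstp1 from 236165 to 329693, while the 75th percentile ran from 363 to 890. In the tumours the percentile was 811 and 890 and the Gstm1 signal 316198 and 311848. In Fah healthy liver they were 363 and 288649. On the 2xoff/on inflamed FCR array the percentile was 722 and the Gstm1 signal the highest, at 436274. The part of the percentile in the lower relative levels of the tumours was not tested. For tumour minus healthy liver the change from the 75th percentile to quantile normalization moved Gsta3 from -1.88 to -0.85, Mgst1 from -1.90 to -0.83 and Gstp1 from -1.47 to -0.29. In the authors' deposited table, of unknown scaling, the same differences were -0.78, -0.88 and -0.38. In tumour minus inflamed FCR liver Gsta1 and Gsta2 moved from -2.69 to -2.00 and from -3.03 to -2.43 with quantile normalization. Gsta3 and Mgst1 moved by similar amounts there, from -1.49 to -0.79 and from -1.31 to -0.61. Gstm2 in inflamed minus normal FCR liver was 3.32 and 3.35.

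**Figure D3:**
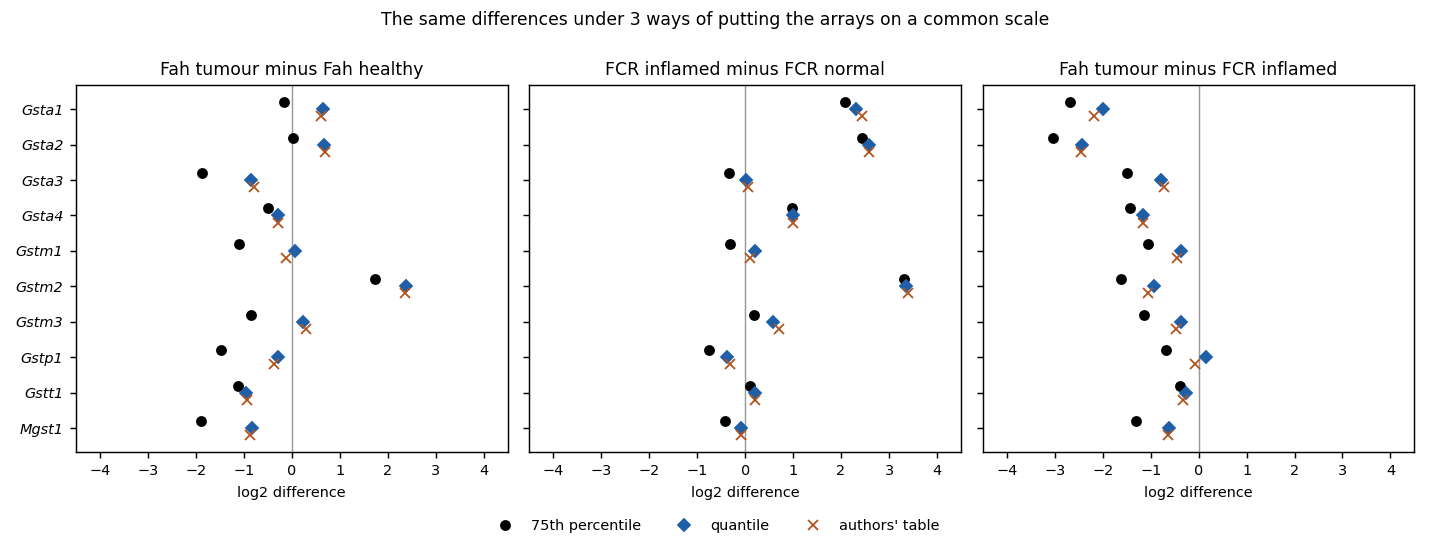
Log2 differences of the 10 genes in 3 comparisons on 3 scales: 75th percentile (circles), quantile normalization (diamonds) and the authors' deposited table (crosses). In Fah tumour minus Fah healthy liver the bright genes move to the right, Gstm3 from -0.85 to 0.23, while Gsta4 and Gstt1 move little; for tumour minus inflamed FCR liver Gsta1 and Gsta2 are at -2.00 or lower on each scale and Gstp1 turns to 0.15 with quantile normalization.

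On continuous NTBC the 2 genotypes differed little in these genes, as far as 1 array each can show. The largest differences, Fah healthy minus FCR normal, were 0.86 for Gstt1, -0.61 for Gsta2, -0.42 for Gsta1 and -0.27 for Gstm1. The other 6 lay between -0.13 and 0.16, the median was 0.00, and no member differed by 1 or more, as 8.29% of all genes did. This pair was not tested. Over all 3 regimens, with regimen as a block, Fah minus FCR was -2.22 ± 0.52 for Gsta2 (limma adjusted p = 0.211) and -1.93 ± 0.52 for Gsta1 (0.268). No member passed, against 0.293% of all genes, and 9 lay below 0, against 58.3%. With normexp background correction Gsta2 and Gsta1 passed (limma adjusted p = 0.00247 and 0.0189). Over all genes 297 passed with normexp, against 45 without it. For 2xoff/on minus off no member passed, against 0.793% of all genes.

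Other genes of the glutathione system were taken from lists chosen for their function. Of 20 further transferases and relatives measured, 5 passed as higher and none as lower in the mean withdrawal response, in which 8.66% of all genes passed as higher. The median was 0.59 against -0.02 for all genes, and 0.25 with normexp, where 3 were higher and 1 lower, and 0.28 with the array median. Mgst2, a microsomal enzyme that also makes leukotriene C4, lay at -1.91 in Fah healthy liver, 3.64 and 3.82 in the tumours, 0.25 in FCR normal liver, and 5.53 and 4.75 in inflamed FCR liver, and rose by 5.26 ± 0.43 (limma adjusted p = 0.000425). Mgst3 rose by 2.57 ± 0.43 (0.00722) and Alox5ap by 2.63 ± 0.48 (0.00984). The other 2 were Hpgds, the prostaglandin D synthase of the sigma class, and Ptges, a prostaglandin E synthase, which were not well above background on either continuous NTBC array and entered the test only through the arrays where they were high. Both calls were lost with normexp (0.794 and 0.537) and in the authors' deposited table (0.075 and 0.0769), and that of Ptges also with quantile normalization, without a filter and without Fah tumour replicate 2 (0.061). In tumour over healthy liver they were at least 4.39-fold and 5.86-fold higher, and in inflamed over normal FCR liver at least 1.80-fold and 3.59-fold; such folds set a dim probe at the lowest signal well above background. For tumour minus inflamed FCR liver none of the 20 passed and the median was -0.21, with Mgst3 at -2.27 ± 0.50 (0.141), Gstm4 at -1.97 ± 0.56 (0.269) and Gsto1 at -1.91 ± 0.46 (0.185).

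Gstz1, the zeta class transferase, is itself the enzyme of tyrosine breakdown that turns maleylacetoacetate into fumarylacetoacetate. It lay at 5.51 in Fah healthy liver, 3.72 and 4.33 in the tumours, 5.08 in FCR normal liver, and 3.64 and 4.57 in inflamed FCR liver. Both continuous NTBC arrays were above the 4 others, and the tumours and inflamed livers overlapped. Its mean withdrawal response was -1.23 ± 0.44 (limma adjusted p = 0.115) and its difference between tumour and inflamed FCR liver -0.08 ± 0.51 (0.979). Tat, the first enzyme of tyrosine breakdown, fell in the mean response by 1.74 on the log2 scale (SE 0.39, limma adjusted p = 0.0229). The call was lost with quantile normalization, in the authors' deposited table, without a trend in eBayes and without Fah tumour replicate 2 (0.105, 0.116, 0.0521 and 0.0886).

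Of 18 genes of glutathione synthesis and recycling, 5 passed as higher and none as lower in the mean withdrawal response, against 8.66% of all genes higher. The median was 0.39, and 0.64 with quantile normalization and 0.08 with the array median. Slc7a11, the cystine carrier that feeds glutathione synthesis, lay at -7.33 in Fah healthy liver, 0.92 and -0.95 in the tumours, -6.14 in FCR normal liver, and 4.34 and 2.51 in inflamed FCR liver. It was not well above background on either continuous NTBC array, and entered the test only through the others, so its folds are bounds: at least 34.3-fold higher in tumour and at least 488-fold higher in inflamed FCR liver (limma adjusted p = 0.0077 and 0.00459). Both calls were lost in the authors' deposited table (0.0782 and 0.0501). The glutathione peroxidases Gpx3, Gpx2 and Gpx7 rose by 5.01 ± 0.51, 4.97 ± 0.67 and 2.39 ± 0.54 (0.000972, 0.00275 and 0.023), the call for Gpx7 being lost in the authors' deposited table (0.0593). Slc3a2, the partner chain of Slc7a11, passed too (0.0402), but not with the array median (0.187), the mean of its probes, no trend or without Fah tumour replicate 1 or 2 (0.125 and 0.183). Gclc, the catalytic subunit of the rate-limiting step, lay at 5.40, then 4.33 and 4.66 in the tumours, 4.94 in FCR normal liver, and 6.40 and 6.87 in inflamed FCR liver. The tumours were the lowest arrays and the inflamed FCR livers the highest. For tumour minus inflamed FCR liver none of the 18 passed; the largest differences were -3.44 ± 0.81 for Slc7a11 (limma adjusted p = 0.172), -2.62 ± 0.57 for Gsr, glutathione reductase (0.135), and -2.14 ± 0.45 for Gclc (0.13), while Gpx3 lay the other way at 2.47 ± 0.58 (0.172).

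Of 18 genes of conjugate export and mercapturate formation, 6 passed as higher and 2 as lower in the mean withdrawal response, against 12% of all genes in either direction. Ggt1, the ectoenzyme that takes the glutamate off glutathione conjugates, rose by 6.72 ± 0.46 (limma adjusted p = 0.000277). It was also lower in tumour than in inflamed FCR liver, by -3.74 ± 0.53 (0.039), 1 of the 32 genes of the array that passed there. That call was lost with quantile normalization, in the authors' deposited table, without a filter on dim probes and without Fah tumour replicate 2 (limma adjusted p = 0.087, 0.0731, 0.0806 and 0.0953). The export pumps Abcc1 and Abcc4 rose by 3.21 ± 0.47 (0.00392) and 2.66 ± 0.50 (0.0107). Ggt1 was dim in Fah healthy liver, so that the tumours were at least 16.6-fold higher, and the dipeptidase Dpep2, counted among the 6, was dim on both continuous NTBC arrays and entered the test only through the others, at least 1.25-fold higher in tumour and 1.76-fold in inflamed FCR liver. The call of Dpep2 was lost with normexp, at -0.18 (0.814), and in the authors' deposited table (0.165). Those that fell were Nat8f1 and Nat8, by 2.73 and 2.63 on the log2 scale (SE 0.38 and 0.42, 0.00315 and 0.00549); Nat8 is the acetyltransferase of the last step. With normexp background correction the median of this list in the mean response was -0.05 instead of 0.54.

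All 21 further NRF2 targets lay below 0 for tumour minus inflamed FCR liver, against 57.6% of all genes, with a median of -1.49. None passed, while with normexp 6 did, all lower. Over all genes 200 passed with normexp, against 32 without it. The largest differences were -2.87 ± 0.47 for G6pdx, -2.74 ± 0.45 for the heme carrier Slc48a1, -2.61 ± 0.68 for the carbonyl reductase Cbr3 and -2.31 ± 0.50 for heme oxygenase Hmox1 (limma adjusted p = 0.0634, 0.0634, 0.231 and 0.135). In the mean withdrawal response 7 of 21 rose, against 8.66% of all genes, and none fell. The median was 0.33, and 0.88 with quantile normalization, 0.83 in the authors' deposited table and 0.02 with the array median. Nqo1, a quinone reductase often read as an NRF2 marker, lay at 1.25 in Fah healthy liver, 3.37 and 1.57 in the tumours, 0.49 in FCR normal liver, and 4.68 and 3.42 in inflamed FCR liver; it rose by 2.39 ± 0.60 (0.0349), a call lost with quantile normalization (0.0524), the array median (0.0871), no filter, no trend and the authors' deposited table. Unlike for Gsta1, 1 of the 2 tumour arrays reached nearly the level of the lower inflamed FCR array. Among 11 regulators of the pathway none passed for tumour against inflamed FCR liver or in either response. For 2xoff/on minus off, also a comparison of slide 2 with slide 1, 1 of the 11 passed as higher, against 0.793% of all genes in either direction. Nfe2l2, the gene of NRF2, lay at 3.19, then 4.27 and 4.52 in the tumours, 3.48 in FCR normal liver, and 4.81 and 3.66 in inflamed FCR liver, and Keap1 at 2.57, 2.38, 2.43, 2.64, 1.36 and 2.76.

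Of 15 genes of the CAR and PXR pathway, 4 fell and none rose in the mean withdrawal response, in which 12% of all genes passed in either direction, with a median of -0.78. Only 2 fell with quantile normalization, and the authors' deposited table also gave 2. Cyp2c37, a target of CAR, fell by 4.49 on the log2 scale (SE 0.41, limma adjusted p = 0.000673) and Nr1i3, the gene of CAR, by 2.31 (SE 0.43, 0.0107). Cyp3a11, the main PXR target of mouse liver, fell by 1.92 (SE 0.49, 0.0359) and the carboxylesterase Ces2a by 2.51 (SE 0.68, 0.047); both calls were lost with quantile normalization (0.205 and 0.117), in the authors' deposited table, without a filter and without a trend, that of Cyp3a11 also without Fah tumour replicate 2 (0.0856) and that of Ces2a with the filter on all 6 arrays (0.0506). Gstm2 rose in the same comparison, and a link between it and these receptors was not tested.

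**Figure D4:**
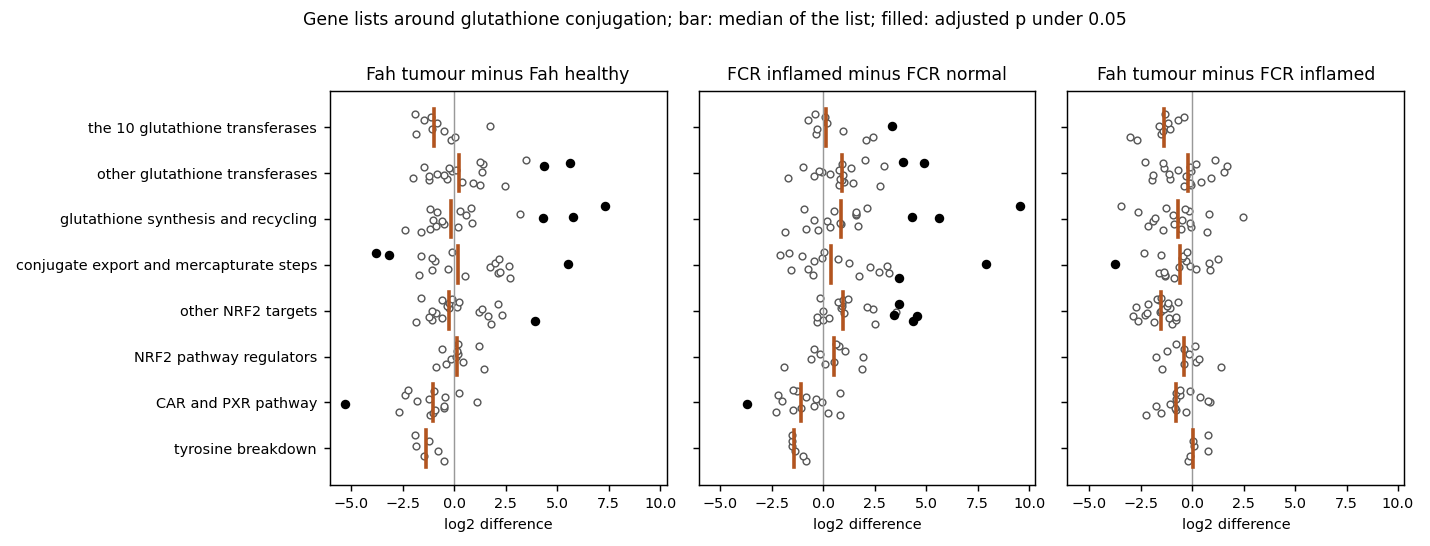
Log2 differences of the genes of 8 lists in 3 comparisons, 1 point per gene, filled where the adjusted p over all genes was under 0.05, with a bar at the list's median. For tumour minus inflamed FCR liver the medians of the 10 glutathione transferases (-1.37) and of the other NRF2 targets (-1.49) lie left of the other lists, and they are -0.70 and -0.98 with quantile normalization; filled points at the right of the first 2 panels include Slc7a11 and Ggt1, which were dim on continuous NTBC arrays, Ggt1 in Fah healthy liver only.

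Markers of some cell types differed between the groups. The 7 hepatocyte markers had a median difference of -1.23 for tumour minus healthy liver, -0.98 for inflamed minus normal FCR liver and -0.03 for tumour minus inflamed FCR liver. With quantile normalization these were -0.32, -0.72 and 0.66, and in the authors' deposited table -0.30, -0.69 and 0.58. Their summed level, relative to the 75th percentile, was 2850 in Fah healthy and 2560 in FCR normal liver, 1170 to 1320 in the tumours and 1370 to 1650 in inflamed FCR liver. For the 6 bile duct and progenitor markers it was 10.2 and 9.16 on continuous NTBC, 63.5 to 159 in the tumours and 16.2 to 56.6 in inflamed FCR liver; 4 of 6 rose in tumour over healthy liver, against 5.06% of all genes passing, and 1 of 6 did with the array median and in the authors' deposited table. For the 5 stellate and fibroblast markers it was 31.6 and 33.7, then 178 to 191 in the tumours and 81.5 to 111 in inflamed FCR liver, and for the 4 cycling markers 0.545 and 0.610, then 13.8 to 19.1 and 4.16 to 7.61. The 4 macrophage markers gave 14 and 11.8, then 31.1 to 46.2 in the tumours and 8.77 to 40.3 in inflamed FCR liver. The 4 endothelial markers had median differences of -0.28 for tumour minus healthy, -0.56 for inflamed minus normal and 0.34 for tumour minus inflamed FCR liver. Lyve1, a marker of sinusoidal and lymphatic endothelium among them, lay at -0.68 in Fah healthy liver, -0.28 and -0.33 in the tumours, -0.23 in FCR normal liver, and 4.19 and 2.40 in inflamed FCR liver. Like Gsta1 and Gsta2 it was high on the inflamed FCR arrays alone, at -3.60 ± 0.64 for tumour minus inflamed FCR liver (limma adjusted p = 0.0783). The other 3 endothelial markers lay the other way, above 0 in that comparison and below 0 for inflamed minus normal FCR liver. Summed T, B and NK cell markers stayed under 1 on every array. The T cell sum was 0.844 to 0.899 on the Fah arrays and 0.494 to 0.738 on the FCR arrays. For tumour minus inflamed FCR liver 3 of the 5 T cell markers lay above 0 and 2 below. The B cell sum was 0.603 to 0.912 on the Fah arrays and 0.167 to 0.256 on the FCR arrays. The NK sum was 0.166 in Fah healthy liver, 0.510 to 0.827 in the tumours and at most 0.0940 in FCR livers. Ncr1 and Gzma, 2 of the 4 NK markers, were well above background on the tumour arrays only. The part of these cells in the levels of the glutathione transferases was not tested, and in whole tissue fewer cells of a type and less RNA per cell cannot be told apart.

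The mean of the 10 genes, each centred on its own mean over the arrays, was -0.02 in Fah healthy liver, -0.74 and -0.75 in the tumours, 0.01 in FCR normal liver, and 0.83 and 0.66 in inflamed FCR liver. The 5 genes outside the lists whose levels followed that mean most closely over the 6 arrays, by Pearson correlation, were Pramel27 (0.993), Armc6 (0.990), Cpb2 (0.989), Golga7 (0.988) and Prg4 (0.988). These correlations describe 6 arrays in 4 groups, which share the scaling of each array.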

How the data were processed

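The scans were quantified with Agilent Feature Extraction 10.7.3.1 (protocol GE1_105_Dec08, design on mm9), per the file headers; the submitters' processing notes name version 10.5. The deposited scanner files hold a background-subtracted processed intensity per spot, not normalized between arrays, and the authors' deposited table holds log2 values with array medians of 6.46 to 6.48, with unknown scaling. Control and outlier spots and 29 probes then missing on an array were left out, and spots of a probe were averaged. Values are log2 intensity minus the array's 75th percentile. Accessions were matched without versions to RefSeq (GRCm38.p6), naming 26904 of 41145 probes; a gene's probe with the highest mean was tested. Genes detected above background on 2 or more arrays entered limma 3.58.1 under R 4.3.3 (lmFit and eBayes with trend, two-sided, Benjamini-Hochberg at 0.05), in a model of 4 group means or of genotype plus regimen, each with 2 residual degrees of freedom; a group of 1 array is taken to have the spread of the rest. Fits without 1 array, and the fit of 4 group means with slide as a block, had 1 residual degree of freedom. Precision is limited by the number of arrays. The steps were tested on simulated data. Promoter windows were aligned with Biopython 1.88.

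The members, lists and tests were chosen with earlier results of these data known. From each further list at most 4 genes with the largest difference between tumour and inflamed FCR liver and at most 4 in the mean withdrawal response are named, besides Gstz1, Nfe2l2, Keap1, Gclc, Nqo1, Fah, Rag2 and Il2rg; Slc3a2, Ncr1, Gzma and Lyve1 were named after their values were seen. Alternatives were normexp (offset 50, median spot signal), quantile normalization, the array median, 2 other filters, the mean of probes, every probe, no trend, the authors' table, slide or regimen blocks and leaving out arrays. Part of the tyrosine breakdown list is not reported here.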

Additional observations from a re-analysis of the deposited data

Results flagged for a closer look

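Gsta4 moved in opposite directions in the 2 genotypes on every array. In Fah mice the tumour arrays lay 0.55 and 0.46 below healthy liver, and in FCR mice the inflamed arrays lay 0.76 and 1.18 above normal liver. The difference between the responses was -1.48 (SE 0.81) at an unadjusted p of 0.104 and an adjusted p of 1 in limma, so it did not pass. It lay between -1.68 and -1.27 under the alternatives run.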

How the results depend on the processing

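Of the values of single genes under alternatives, 907 kept direction and side of the threshold and 46 turned. Another 38 passed under the alternative alone, and 3 lost the call. The cause was not tested. Scaling moved the median of all genes in Fah tumour minus healthy liver from -0.08 to -0.28 (normexp) and -0.44 (array median). Replicates of the same number in the tumour and inflamed groups share regimen and slide, and the slide block, the regimen block and the differences within slides are the paired analyses. The number of arrays limits all tests.

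For tumour against inflamed FCR liver, 0 members and 32 genes passed. With normexp these were 2 and 200, with the array median 1 and 85, with slide as a block 2 and 984. With quantile normalization 12 genes passed, without a filter 11, with the filter on all 6 arrays 4, without trend 49, and 4 did in the authors' table. Without 1 array at a time, 0 to 4 members and 56 to 800 genes passed. Gstp1 turned to 0.15 (quantile), and Gstt1 ranged from -1.52 to 0.76 without 1 array.

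For Fah tumour against healthy liver, 0 members and 778 genes passed. With quantile normalization these were 1 and 471; 431 genes passed with the filter on all 6 arrays, 263 in the authors' table and 363 with every probe on its own, and 0 to 4 members and 500 to 2371 genes without 1 array. Gsta1 turned to 0.01 (normexp), 0.65 (quantile) and 0.61 (authors' table), Gstm1 to 0.06 (quantile), Gstm3 to 0.23 (quantile) and 0.30 (authors' table) and Gsta2 to -0.34 (array median). Without 1 array Gsta1 ranged from -0.44 to 0.09 and Gsta2 from -0.20 to 0.26. Leaving out an FCR array does not change the differences of this comparison, only the spread that their p-values rest on.

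For inflamed against normal FCR liver, 1 member and 270 genes passed. There were 3 members with normexp and 0 with the array median, without trend and with every probe; genes were 117 (quantile), 159 (no filter), 138 (all 6 arrays), 54 (authors' table) and 73 (every probe). Without 1 array, 1 to 3 members and 461 to 1807 genes passed. Gsta3 turned to 0.02 (quantile) and 0.05 (authors' table), Gstm1 to 0.21, 0.07 (mean of probes) and 0.09, and with the array median Gstm3 to -0.08 and Gstt1 to -0.14. Without 1 array Gstm1 ranged from -0.66 to 0.05, Gstm3 from -0.0027 to 0.36 and Gstt1 from -1.03 to 1.25. Leaving out a Fah array likewise changes only the spread here.

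For the difference of responses, no gene passed in limma, with 332 at an unadjusted p under 0.05; 2 passed with normexp and 0 to 16 without 1 array, none of them a member. Gstp1 turned to 0.08 (quantile). For the mean response, 1 member and 1838 genes passed, 2 members with normexp, quantile and the authors' table, and 1201 (all 6 arrays) and 936 (authors' table) genes; without 1 array these were 1 to 4 and 1394 to 3759. Gstm1 turned to 0.14 (quantile), Gstm3 to 0.40 (quantile) and 0.51 (authors' table) and Gsta4 to -0.08 (array median), and Gstt1 ranged from -1.08 to 0.06 without 1 array.

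For genotype with regimen as a block, 0 members and 45 genes passed, and 2 and 297 with normexp. Genes were 13 (quantile), 74 (array median), 73 (no filter), 22 (all 6 arrays), 27 (mean of probes), 29 (no trend), 10 (authors' table), 101 (every probe), 1 without the block, 0 with slide as the block and 0 to 352 without 1 array. Gstt1 turned to -0.00027 (normexp) and -0.03 (array median), and ranged from -0.07 to 0.54 without 1 array; Gstp1 turned to 0.12 (quantile). For 2xoff/on against off, 0 members and 122 genes passed, and 1 and 606 with normexp. Genes were 56 (quantile), 228 (array median), 205 (no filter), 184 (all 6 arrays), 46 (mean of probes), 78 (authors' table) and 1404 (every probe); without 1 array 0 to 1 members and 0 to 624 genes passed. Gstm3 turned to 0.03 (quantile), Gsta4 to -0.16 and Gstm2 to -0.36 (array median), and Gsta3 to 0.06 and Mgst1 to 0.20 (authors' table). Without 1 array the ranges were -1.38 to 0.10 for Gsta2, -0.88 to 0.25 for Gsta3, -0.24 to 0.75 for Gsta4, -0.56 to 0.65 for Gstm2, -0.56 to 0.25 for Gstm3 and -0.55 to 0.32 for Mgst1.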
